A study of Homo sapiens with 2 samples.

Results

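The cell cycle and DNA replication genes described here are 55 named protein-coding genes, taken by their GENCODE 44 symbols out of 20033 protein-coding genes. Of these, 40 act in G1, at the G1/S boundary or in DNA replication, and 15 act in G2 and mitosis (G2/M). NUDT21 binding was profiled by CUT&Tag, in which an antibody tethers a transposase to its target on chromatin so that nearby DNA is cut and sequenced. The cells were J.gamma1, a cultured human line of T-ALL (leukemia of immature T cells), and 2 replicates labelled with the NUDT21 antibody formed 1 group with no other treatment or genotype in the labels. No control sample was analysed here, so the values below describe the peaks called in each replicate and not a difference between conditions. The methods of the study describe the replicates as independent and biological, and expression of the genes was not measured here.

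NUDT21 is a subunit of the cleavage factor that helps choose where a pre-mRNA is cut and polyadenylated, and the study asked whether it also sits at promoters. Passage through the cell cycle is driven by cyclins and their kinases. In G1, E2F factors switch on the genes that load the MCM helicase at replication origins, fire those origins, copy the DNA and supply nucleotides. Genes needed in G2 and mitosis are switched on later, typically through promoters that carry CCAAT boxes and a cell cycle homology region (CHR), and they encode mitotic cyclins, kinases and checkpoint proteins.

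For each replicate the authors deposited a list of peaks, with 97162 peaks in replicate 1 and 68532 in replicate 2, of which 92722 and 66671 lay on chromosomes 1 to 22, X and Y. The median fold enrichment over local background was 3.95 and 4.23. The median number of fragments at a summit, recovered from the deposited fold and p-value of 3091 and 2223 peaks spaced evenly through the lists, was 30 and 19. A promoter peak was one with its closest edge no more than 3000 bp from a transcript start of the gene. Its fold percentile is the percentage of peaks of the same list that had a lower fold, so that 100 marks the strongest peak of a list, and each gene is represented by its strongest promoter peak. Where a member is called the highest or lowest of a group, this is by the mean of its percentiles in both replicates and need not hold in each. Absolute read depth is unknown.

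The promoters of 5 members are shown first, because they span the range of the measurements that follow. They are the member with the highest (CDT1) and, after GINS4, the lowest (MCM10) fold percentile among the G1/S genes, the highest (AURKB) and lowest (CDK1) among the G2/M genes, and PCNA. The sequences are bases upstream of the RefSeq start (GRCh38.p14), written 5′ to 3′ on the strand of the gene and stopped before any annotated UTR of the gene. They run to 250 bases for CDT1 (chr16:88803539-88803788, plus strand), MCM10 (chr10:13161308-13161557, plus strand) and CDK1 (chr10:60778081-60778330, plus strand). For PCNA 246 bases are shown (chr20:5126627-5126872, minus strand) and for AURKB 221 bases (chr17:8210255-8210475, minus strand). Capitals mark a CCAAT box (CCAAT), a CHR (TTTGAA or TTCGAA) or an E2F site (TTTCCCGC, TTTCGCGC, TTTGCCGC or TTTGGCGC) on either strand.
CDT1: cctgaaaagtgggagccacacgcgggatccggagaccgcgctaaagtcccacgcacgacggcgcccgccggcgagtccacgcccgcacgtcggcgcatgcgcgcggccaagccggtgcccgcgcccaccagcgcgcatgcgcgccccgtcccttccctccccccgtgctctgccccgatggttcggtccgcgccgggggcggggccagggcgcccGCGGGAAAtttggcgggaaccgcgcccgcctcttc
MCM10: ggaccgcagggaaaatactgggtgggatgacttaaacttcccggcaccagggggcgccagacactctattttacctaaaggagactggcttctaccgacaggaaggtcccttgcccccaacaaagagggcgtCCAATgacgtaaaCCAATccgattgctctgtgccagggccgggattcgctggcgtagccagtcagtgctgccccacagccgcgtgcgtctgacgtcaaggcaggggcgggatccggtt
PCNA: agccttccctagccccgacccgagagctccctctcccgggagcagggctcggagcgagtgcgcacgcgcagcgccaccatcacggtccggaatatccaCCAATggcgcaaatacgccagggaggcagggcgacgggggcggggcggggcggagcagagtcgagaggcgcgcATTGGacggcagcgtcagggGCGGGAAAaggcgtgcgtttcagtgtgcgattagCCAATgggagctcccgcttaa
CDK1: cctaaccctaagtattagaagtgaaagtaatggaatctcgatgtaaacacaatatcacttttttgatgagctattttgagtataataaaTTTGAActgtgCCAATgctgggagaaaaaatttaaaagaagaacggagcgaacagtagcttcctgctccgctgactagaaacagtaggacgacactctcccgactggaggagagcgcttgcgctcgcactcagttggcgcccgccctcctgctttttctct
AURKB: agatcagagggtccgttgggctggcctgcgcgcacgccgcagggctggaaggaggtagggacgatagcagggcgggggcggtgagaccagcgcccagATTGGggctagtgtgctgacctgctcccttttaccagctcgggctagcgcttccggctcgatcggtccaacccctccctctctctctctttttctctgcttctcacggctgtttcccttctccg
The CDT1 stretch, at 76.4% GC, held 1 E2F site and no CCAAT box. The CDK1 stretch, at 44.4% GC, held 1 CHR and 1 CCAAT box. The RefSeq start lay at the canonical start for CDT1 and MCM10, at -147 bp from it for CDK1, 350 bp downstream of it for AURKB and at -6664 bp for PCNA (negative values are upstream), so the printed PCNA promoter is not the one at which its strongest peak lay.

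To examine how often NUDT21 occupied these promoters, genes with a promoter peak were counted in each replicate. All 55 members had one in replicate 1 and 52 had one in replicate 2. A peak in both replicates was found at 52 members, or 94.5% (95% Wilson interval 85.1 to 98.1%, which covers counting error only). Among all protein-coding genes the share was 57% in both replicates, with 69.8% in replicate 1 and 57.9% in replicate 2. The 5877 protein-coding genes with no promoter peak in either replicate included none of the members.

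Promoter GC content moved with occupancy and was taken into account next. Of protein-coding genes in the lowest 10% of GC content around the canonical start, 5.96% were occupied in both replicates, against 75.0% in the highest 10%. The members had a median GC content of 60.9%, close to the 61.3% of all protein-coding genes. Their median ratio of observed to expected CpG (C followed by G) was higher, 0.820 against 0.725. The like-GC genes below were not matched for it. For each member, the 200 other protein-coding genes nearest in GC were taken, and on average 67.3% of them had a promoter peak in both replicates, 27.3 percentage points fewer than the members. In replicate 1 the like-GC share was 80.4%, and in replicate 2 it was 68.2%. The members also had more annotated transcript starts than other genes, with a median of 8 against 5, which gives more places for a promoter peak. With neighbours alike in both GC and number of starts, the difference was 25.4 percentage points. With only the 10000 peaks of each list with the lowest p, 45.5% of members were occupied in both replicates, and the difference from like-GC genes was 16.05 points.

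The 2 phases were then compared. A promoter peak in both replicates was found at 38 of 40 G1/S and replication genes, or 95% (83.5 to 98.6%), and at 14 of 15 G2/M genes, or 93.3% (70.2 to 98.8%). The difference was 1.67 percentage points, with a 95% Newcombe interval from -11.1 to 25.1 that covers counting error only. Genes are not replicates, so no conclusion on the phases was drawn from it. Each phase stood above its own like-GC neighbours, by 27.5 percentage points for G1/S and 26.6 for G2/M. A wider list of 88 other cell cycle genes, named for their function and not among the members, was chosen with earlier results of these data known. No like-GC share was computed for it. It gave 76 genes with a peak in both replicates, or 86.4% (77.7 to 92.0%). By list these were 13 of 16 other G1/S genes, 33 of 36 other replication genes and 30 of 36 other G2/M genes. Only ORC5 (an origin recognition complex subunit), PRIM2 (a primase subunit) and SPC25 (a kinetochore protein) among the 88 had no promoter peak in either replicate.

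**Figure D1:**
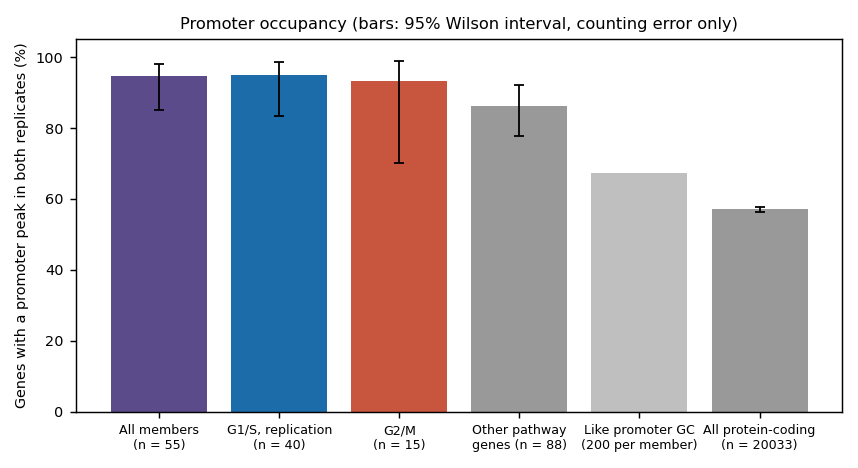
Bars give the percentage of genes occupied at the promoter in both replicates for all members, for G1/S and G2/M members, for 88 other pathway genes, for protein-coding genes of like promoter GC and for all protein-coding genes, and error bars are 95% Wilson intervals that cover counting error only (none is drawn for the like-GC average). The members reach 94.5%, against 67.3% for genes of like GC and 57% for all protein-coding genes.

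The 3 members without a promoter peak in replicate 2 were CCND2, RFC4 and CCNA2. CCND2 encodes cyclin D2, a partner of CDK4 and CDK6. In replicate 1 its strongest promoter peak (chr12:4281348-4282465) lay in an intron with a fold of 3.81 and a percentile of 45.1, and the peak nearest to its canonical start had its summit at -1460 bp. RFC4, a subunit of the clamp loader that places PCNA on DNA, had its strongest peak in replicate 1 within an intron (chr3:186791195-186791514). That peak had a fold of 6.72 and a percentile of 90.4, with 25 fragments against a control level of 2.58. Its other peak, at -156 bp from the canonical start, had a percentile of 23.7. CCNA2 encodes cyclin A2, which drives S phase and entry into mitosis. Its 1 promoter peak in replicate 1 (chr4:121823209-121824134) lay over the canonical start with a fold of 2.82, a percentile of 14.4, and 51 fragments over a control level of 16. Within 1000 bp of the canonical start, RFC4 and CCNA2 thus had only a peak of below-median fold, and CCND2 had none.

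The strength of the peaks was compared next. The members' strongest promoter peaks had a median fold of 7.11 in replicate 1 and 5.45 in replicate 2, at median fold percentiles of 92.1 and 77.8 (84.9 ± 10.1, mean ± SD, n = 2 replicates). Over all protein-coding genes with a promoter peak the medians were 82.4 and 77.9, and over like-GC genes with one they were 82.7 and 77.9. The members thus stood higher than other occupied promoters in replicate 1 and level with them in replicate 2. When genes without a peak were kept at the bottom of a ranking of all protein-coding genes, the median member stood at the 76.3 percentile of genes in replicate 1 and the 70.1 percentile in replicate 2. The median like-GC gene stood at 56.9 in both, which is 19.4 and 13.2 points lower.

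**Figure D2:**
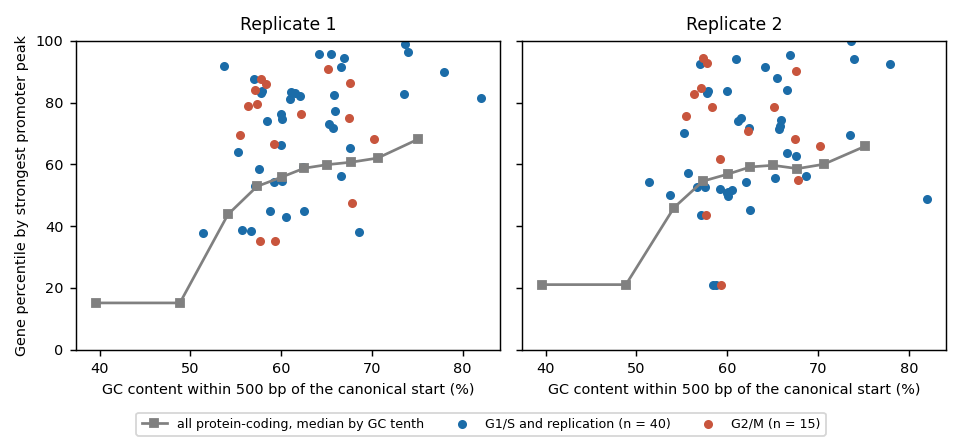
Each point is a member, placed by the GC content within 500 bp of its canonical start (x axis, percent) and its percentile among all protein-coding genes ranked by strongest promoter peak (y axis), in replicate 1 and replicate 2, and grey squares join the median percentile of all protein-coding genes in 10 classes of GC content. The median member stands at 76.3 and 70.1, above the like-GC median of 56.9 in each replicate, with members on both sides of the grey line.

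At the top of the range, 17 members, or 30.9%, had a fold percentile of at least 90 in both replicates, against 17% of all protein-coding genes and 20.2% of like-GC genes. They comprised 12 G1/S genes (CDK2, CDC6, CDT1, GMNN, MCM7, CDC45, GINS2, POLD1, POLE, PCNA, RRM2 and TK1) and 5 G2/M genes (CCNB2, CDC25B, AURKB, BUB1 and TOP2A). CDC45, which fires origins with the GINS complex, was among them only through intron peaks 40249 and 25940 bp from its canonical start, and its peak nearest to that start had percentiles of 15.9 and 47.3. By the nearest peak, GINS2 (88.2) and BUB1 (80.8) also lay below 90 in replicate 2, and POLE lay below 90 in both replicates. At the bottom, CDK1 was the 1 member below a percentile of 25 in both replicates by its strongest peak. By the nearest peak, CDK6 (11.2 and 7.94) and MCM3 (20.9 and 3.10) also lay below 25 in both. The replicates ordered the members alike in part, with a Spearman rho of 0.743 across the 52 members with a peak in both, which share the antibody and the genome sequence and are not independent. The percentile was higher in replicate 1 for 41 members and higher in replicate 2 for 11. The median gap was 10.4 points, and the widest, 74.0 points, belonged to CCNE1 (cyclin E1, the partner of CDK2 at the G1/S boundary), at 94.8 in replicate 1 and 20.8 in replicate 2. The CCNE1 summits differed in position, at -223 bp from the canonical start in replicate 1 and -1276 bp in replicate 2.

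By phase, the median fold percentile was 91.6 and 75.6 for G1/S genes and 92.1 and 85.7 for G2/M genes. The mean difference, G1/S minus G2/M, was -5.27 ± 6.71 (SD, n = 2), which is smaller than the spread between the replicates. Its sign turned when only the 10000 peaks of each list with the lowest p were kept. It was -16.2 with canonical starts only, -21.1 without genes that share a promoter and -19.6 with the peak nearest to the canonical start, and no order of the phases was drawn from it.

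**Figure D3:**
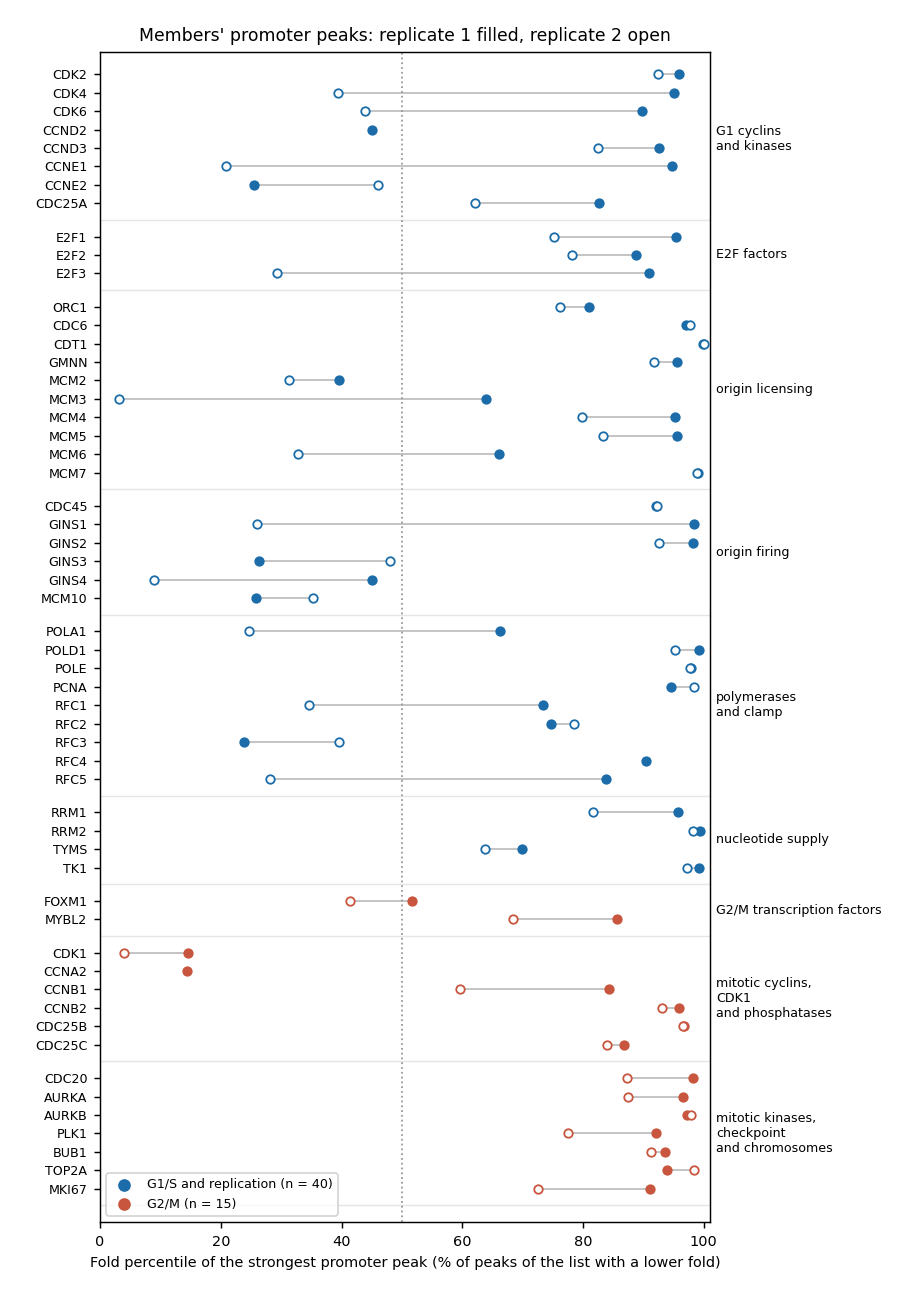
Each line is a member, grouped by role, with the fold percentile of its strongest promoter peak (x axis, percent of peaks of the same list with a lower fold) in replicate 1 as a filled point and in replicate 2 as an open point, and the dotted line marks the median peak of a list. Origin licensing runs from MCM3 to CDT1 at 99.85 and 99.96, the mitotic kinase group stays at or above 72.6 in both replicates, and CDK1 lies at 14.5 and 4.03.

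Among the 8 G1 cyclins, kinases and CDC25A, the median percentile was 91.2 in replicate 1 and 46.0 in replicate 2, the widest split between replicates of any role. CDK2, the kinase that cyclin E activates, was the highest. Its peak over the first exon (chr12:55966383-55967449 in replicate 1) had a fold of 8.57 in replicate 1 and 7.15 in replicate 2, at percentiles of 95.8 and 92.3, and also lay near the start of PMEL. CCNE2, which encodes cyclin E2, was the lowest of those with a peak in both replicates, at 25.5 and 46.0 with folds of 3.19 and 4.10, although CCNE1, CDK4 and CDK6 lay below it in replicate 2. The peak at CCNE2 was not thin in reads, with 75 and 51 fragments at its summit, but it stood over the highest control level of the set in both replicates, 21 and 11.7. CDK4 also stood lower in replicate 2, with folds of 8.12 and 3.90 and summits at -246 and -313 bp from the canonical start.

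The 3 E2F factors had median percentiles of 91.0 and 75.1. E2F1, an activator of replication genes, had folds of 8.30 and 5.30 at percentiles of 95.4 and 75.1. E2F3 had folds of 6.85 and 3.63 at percentiles of 91.0 and 29.2. In replicate 1 its strongest summit lay 1483 bp inside the gene, while the only promoter peak of replicate 2 lay at -320 bp, so the E2F3 values describe different peaks.

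The 10 origin licensing genes all had a promoter peak in both replicates, with median percentiles of 95.3 and 81.5. CDT1, which loads the MCM helicase onto origins, was the highest of all members, with folds of 21.9 and 23.3 at percentiles of 99.85 and 99.96. By fold it ranked 136 of 92722 peaks in replicate 1 and 24 of 66671 in replicate 2. Its peak was broad and covered the whole gene (chr16:88801960-88813756 in replicate 1 and chr16:88801471-88813280 in replicate 2). The strongest summit lay 6220 and 6188 bp downstream of the canonical start, past the end of CDT1. The same broad peak also reached to within 3000 bp of a start of APRT, which encodes a purine salvage enzyme. The summit nearest to the CDT1 start lay at -4229 and -4242 bp, with folds of 16.9 and 18.8. CDC6, which loads the helicase together with CDT1, and GMNN, the inhibitor of CDT1, were both above 90 in each replicate.

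The MCM helicase subunits did not rank alike, although their proteins act as 1 complex. MCM7 stood at 99.0 and 98.8, in a promoter shared with AP4M1. MCM4 and MCM5 stood at 95.2 and 95.5 in replicate 1 and at 79.9 and 83.2 in replicate 2. MCM6 stood at 66.1 and 32.8, and MCM2 at 39.5 and 31.3. The MCM2 values came from peaks 6619 and 1034 bp inside the gene, and its peak nearest to the start had percentiles of 29.9 and 0.32. MCM3 was the lowest of the licensing genes by the mean, though not in replicate 1. Its folds were 4.49 and 2.62 at percentiles of 63.9 and 3.10, from different peaks. The strongest summit lay in a coding exon 7621 bp inside the gene in replicate 1 and at -199 bp from the start in replicate 2. In replicate 1 the peak nearest to the start lay at -197 bp, with a percentile of 20.9.

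The 6 origin firing genes had the lowest medians of the replication roles, at 68.6 and 41.7. GINS2, a subunit of the GINS complex that activates the helicase, was the highest by the mean, with folds of 11.2 and 7.21 at percentiles of 98.3 and 92.6. GINS4, another subunit of the same complex, was the lowest by the mean, with folds of 3.81 and 2.93 at percentiles of 45.1 and 8.94, while MCM10 and GINS3 lay below it in replicate 1. In replicate 2 the only promoter peak of GINS4 lay in an intron, near the start of another annotated transcript. GINS1 stood at 98.4 in replicate 1 through a peak at -16765 bp from its canonical start, near the start of ABHD12, and had a fold of 3.49 in replicate 2 through a peak 16 bp from the start. MCM10 and GINS3 lay below the median peak in both replicates.

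The 9 polymerase, clamp and clamp loader genes had median percentiles of 83.8 and 59.1. PCNA, the sliding clamp that holds polymerases on DNA, had a peak over its canonical start on chromosome 20 (chr20:5119216-5120358 in replicate 1 and chr20:5119188-5120356 in replicate 2). Its folds were 7.89 and 10.2 at percentiles of 94.5 and 98.3, from 136 fragments over a control level of 15 and 77 over 6.68. The summits lay 69 and 184 bp downstream of the canonical start. POLE, the leading-strand polymerase, was the highest of the group by the mean, with folds of 10.4 and 9.47 at percentiles of 97.8 and 97.7, while POLD1 lay above it in replicate 1 and PCNA in replicate 2. POLE also had the most promoter peaks of any member, 22 in each replicate, and its strongest lay far inside or past the gene, so its rank does not describe its main start, where the nearest peak had percentiles of 89.8 and 52.8. RFC3, a clamp loader subunit, was the lowest by the mean, with folds of 3.12 and 3.90 at percentiles of 23.8 and 39.5, while POLA1, RFC1 and RFC5 lay below it in replicate 2. Its summits lay 153 and 147 bp downstream of the start in the 2 replicates.

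The 4 nucleotide supply genes ranked high, with median percentiles of 97.5 and 89.4. RRM2, the small subunit of ribonucleotide reductase, had folds of 15.1 and 10.1 at percentiles of 99.4 and 98.3, and its summits lay at -135 and -12 bp from the canonical start. TK1, a thymidine kinase of the salvage pathway, followed at 99.3 and 97.2 in a promoter shared with AFMID. TYMS, the thymidylate synthase, was the lowest with folds of 4.77 and 4.72 at percentiles of 69.9 and 63.8. The TYMS values came from different peaks, with summits 620 bp downstream of the canonical start in replicate 1 and 12568 bp in replicate 2. In replicate 2 its peak nearest to the start, with the summit at 529 bp, had a fold of 3.07 and a percentile of 12.97.

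Of the 2 transcription factors that activate G2/M genes, MYBL2 had folds of 5.96 and 4.95 at percentiles of 85.6 and 68.3, with summits at -264 and -265 bp from its start. FOXM1 had folds of 4.01 and 3.96 at percentiles of 51.7 and 41.4. In both replicates the strongest FOXM1 peak lay inside the gene, 12491 and 13973 bp from the canonical start, and in replicate 2 there was no other.

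The 6 mitotic cyclins, CDK1 and CDC25 phosphatases held both high and low members, with median percentiles of 85.5 and 84.0. CDC25B, a phosphatase that activates CDK1, was the highest of the role with folds of 9.30 and 8.64 at percentiles of 96.8 and 96.6, and its summits in the 2 replicates lay at the same position, -284 bp from the canonical start. CDK1, the kinase that starts mitosis, was the lowest with a peak in both replicates. Its peak (chr10:60778374-60779021 in replicate 1 and chr10:60778464-60779006 in replicate 2) had folds of 2.83 and 2.67 at percentiles of 14.5 and 4.03. There were 45 fragments over a control level of 14 in replicate 1 and 24 over 8.36 in replicate 2. The summits lay 114 and 110 bp downstream of the canonical start, in the first intron of the canonical transcript, and the −log10 q was 6.88 and 3.62. The CDK1 promoter was therefore occupied in both replicates, at the canonical start, by a peak of low fold. Of its cyclin partners, CCNA2 lay beside it at 14.4 in replicate 1, with no peak in replicate 2, whereas CCNB1 stood at 84.3 and 59.7 and CCNB2 at 95.9 and 93.1.

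The 7 mitotic kinase, checkpoint and chromosome genes had medians of 93.8 and 87.4, and none of them fell below 72.6 in either replicate. AURKB, the kinase of the chromosomal passenger complex, had folds of 9.62 and 9.604 at percentiles of 97.2 and 97.9, the highest of the group by the mean, while CDC20 lay above it in replicate 1 and TOP2A in replicate 2. In replicate 1 that peak lay at the canonical start (-3), and in replicate 2 the strongest peak lay past the gene, while the peak nearest to the start had a percentile of 94.99. TOP2A, which untangles replicated chromosomes, stood at 93.8 and 98.4. MKI67, the proliferation marker Ki-67, was the lowest of the group with folds of 6.85 and 5.13 at percentiles of 91.0 and 72.6, and its summits lay at -165 and -520 bp from the start.

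Fold is a ratio to the local background, so the fragments and the control level at each summit were set side by side. Members had a median of 62 fragments at the strongest summit in replicate 1 (25 to 155) and 29.5 in replicate 2 (11 to 102). The median control level was 7 and 4.46, against 6 and 3.90 over the 3091 and 2223 evenly spaced peaks of the lists. Across the members the fold percentile fell with the control level. The Spearman rho was -0.373 over 55 members in replicate 1 and -0.303 over 52 members in replicate 2. This is a description only, since the control level is the denominator of the fold. The low ranks of CDK1, CCNA2 and CCNE2 went with control levels of 14, 16 and 21 in replicate 1. Other members departed from this in the same replicate. PCNA and CDK4 at a level of 15 and CDC25C at 14 had percentiles of 94.5, 95.02 and 86.8. MCM2 and GINS4, at levels of 6.14 and 5.55, had percentiles of only 39.5 and 45.1. The part of the control level in these ranks was not tested.

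**Figure D4:**
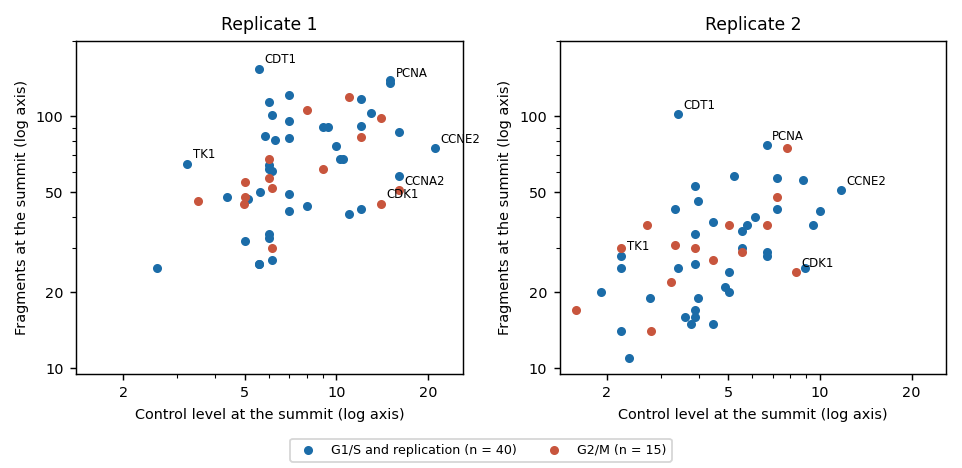
Each point is a member's strongest promoter peak, placed by the control level at its summit (x axis, log scale) and the number of fragments there (y axis, log scale), in replicate 1 and replicate 2. CDT1 has 155 and 102 fragments over control levels of 5.55 and 3.43, whereas CDK1 has 45 and 24 over 14 and 8.36.

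The position of the summits was measured from the canonical start, with positive values downstream. A summit within 1000 bp of the canonical start in both replicates was found at 45 members, or 81.8% (69.7 to 89.8%), against 40.8% of all protein-coding genes and 51.9% of like-GC genes. By phase this was 80% of G1/S genes (65.2 to 89.5%) and 86.7% of G2/M genes (62.1 to 96.3%). The nearest summit lay at a median of -121 bp in replicate 1 and -23.5 bp in replicate 2. It lay within 200 bp of the start at 32 of 55 members in replicate 1 and 24 of 52 in replicate 2, upstream of it at 32 and 28 members, and downstream at 23 and 24. In replicate 1, CCND2, CCND3, E2F2 and CDT1 had no summit within 1000 bp, and in replicate 2 this held for CCND2, CCNE1, CDT1, GINS4, RFC4, RFC5, FOXM1 and CCNA2.

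**Figure D5:**
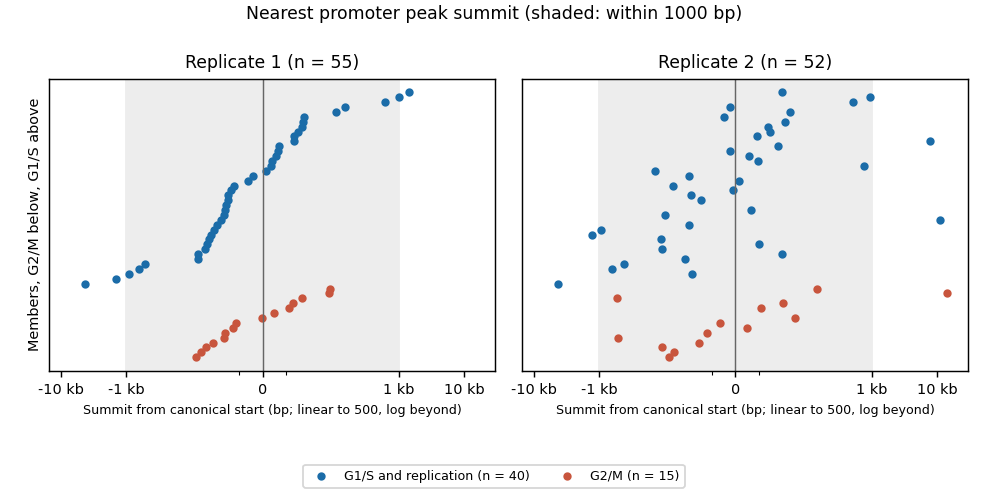
Each point is the promoter peak summit of a member nearest to its canonical start, in bp (x axis, linear to 500 bp and logarithmic beyond, positive downstream), for replicate 1 and replicate 2, with G1/S members above and G2/M members below, and grey marks 1000 bp either side. The medians are -121 and -23.5 bp, and 4 of 55 and 5 of 52 summits lie outside the grey band.

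The strongest peak was often another one. In all, 173 promoter peaks of replicate 1 and 154 of replicate 2 belonged to members, and 15 and 21 members had a single one. The strongest summit was not the nearest at 16 members in each replicate. The strongest peaks of the 2 replicates overlapped at 36 of the 52 members, with a median distance between summits of 69.5 bp and 26 within 200 bp, and lay apart at the other 16. When the peak nearest to the canonical start was used, the members' median fold percentile was 85.6 and 55.5, against 72.9 and 63.9 for all protein-coding genes. On that measure the members stood higher than other occupied promoters in replicate 1 and lower in replicate 2. The strongest peak was also a promoter peak of another protein-coding gene at 14 members in replicate 1 and 11 in replicate 2, for instance NDUFAF6 at CCNE2, PRKDC at MCM4 and CSTF1 at AURKA, and the signal there cannot be assigned to 1 of the pair.

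Because NUDT21 acts at polyadenylation sites, peaks outside promoters and summiting no more than 1000 bp from where the gene ends were also counted. Such a peak in both replicates was found at 5 members, MCM2, MCM5, GINS2, MYBL2 and MKI67, or 9.09%, against 3.74% of all protein-coding genes. Among the 88 other cell cycle genes it was found at 4, or 4.55%. No like-GC share was computed for gene ends, and the difference was not tested. In replicate 1 there were 7, with E2F2 and RFC2 in addition, and in replicate 2 there were 6, with CDC6 in addition. Peaks within 3000 bp of a transcript start of any gene were left out for all genes, also where they lay at a gene end. For instance, the strongest summits of CDT1 and PLK1 lay less than 1000 bp past the gene end in both replicates and were not counted.

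Sequence features that the choice of genes did not use were counted in the RefSeq promoters of 300 bases (250 before the start and 50 after), which were at hand for 47 of the 55 members and 15345 protein-coding genes. Both strands were read. An E2F site was present in 18 of 34 G1/S promoters, or 52.9%, and in 1 of 13 G2/M promoters, or 7.69%, against 4.49% of all promoters. A CHR was present in 3 of 34 G1/S promoters, or 8.82%, and in 7 of 13 G2/M promoters, or 53.8%, against 13.5% of all. A CCAAT box was present in 55.9% and 76.9%, against 36.6% of all. TGTA, the DNA form of the UGUA element that NUDT21 recognises in RNA, was present in 36.2% of member promoters against 51.5% of all promoters. TGTA is mostly A and T, and the promoters were not matched for GC content here. No member lay in the class of protein-coding genes with the lowest promoter GC (25.1 to 44.6%, 2015 genes). The lower TGTA share was therefore not read as a property of the members. The CCAAT box was the most frequent of these words in both phases, but it was also more frequent than the E2F site and the CHR among all promoters. The words differ in length, so their shares do not rank them as features of a phase. The shares were not tested against each other.

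The stretches below show the closest CCAAT box and CHR of the G2/M promoters in which both lay upstream of the RefSeq start, with the words in capitals on either strand, because these genes share the words and differ in peak strength. They are CDK1 (chr10:60778164-60778191), CCNB2 (chr15:59105086-59105128), CDC20 (chr1:43358910-43358936), PLK1 (chr16:23678810-23678868), TOP2A (chr17:40418036-40418062, minus strand) and MKI67 (chr10:128126437-128126458, minus strand).
CDK1: aataaaTTTGAActgtgCCAATgctggg
CCNB2: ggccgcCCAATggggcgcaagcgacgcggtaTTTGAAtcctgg
CDC20: ttggatTTTGAAggagCCAATaggcgc
PLK1: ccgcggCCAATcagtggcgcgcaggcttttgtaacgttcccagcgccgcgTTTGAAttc
TOP2A: aacctgATTGGtttaTTCAAAcaaacc
MKI67: ttttcgTTTGAATTGGgcgggc
In MKI67 the CHR and the CCAAT box, read on the opposite strand, share letters. In CDK1 and CDC20 the CHR lies before the CCAAT box, and in CCNB2 and PLK1 it lies after it. The fold percentiles of these 6 genes ran from 14.5 and 4.03 at CDK1 to 93.8 and 98.4 at TOP2A, with CCNB2 at 95.9 and 93.1 and CDC20, which activates the anaphase-promoting complex, at 98.2 and 87.3. PLK1, a mitotic kinase, stood at 92.1 and 77.4, but through peaks 12406 and 12434 bp from its start, downstream of the gene, and its peak nearest to the start had percentiles of 66.4 and 55.1. A match of these words is a description of the sequence and does not show that a factor bound there.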

How the data were processed

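CUT&Tag with a NUDT21 antibody was analysed in 2 replicates of J.gamma1. Per the methods and processing notes of the submitters, fastp, Bowtie2 2.2.5 (hg38) and removal of duplicates preceded peak calling, and the authors called peaks in each replicate with MACS3 3.0.1. The deposited lists give a fold (a ratio to local background), the −log10 p and −log10 q, and the summit. The deposited score, a scaled −log10 q, was not used. The values rank peaks within 1 list only.

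Starts came from GENCODE 44 on hg38, and the canonical start is that of the Ensembl canonical transcript. GC content was taken 500 bp either side of it. Each member's 200 nearest genes in GC were averaged over members. Fragments and control level at a summit were solved from fold and −log10 p, which in MACS are (pileup + 1)/(control + 1) and a Poisson tail. A solution was found for 100% of 3091 and 2223 peaks checked, with the pileup of replicate 1 scaled by 0.921. A control library is not described in the methods. Whether the control level, and so the denominator of the fold, came from such a library or from the replicate itself was not settled here. On simulated data the promoter assignment was right for 100% of 4000 peaks and the fragments for 100% of 1397 and 1420 peaks.

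With 2 samples of 1 group no test between conditions was possible. Intervals of shares are 95% Wilson intervals for counting error alone, and genes are not replicates. The members, role groups and gene lists were chosen with earlier results of these data known. Values are named for members lacking a promoter peak in a replicate, for CDK1 and PCNA, and for the highest and lowest member of each role, and other members named here were chosen after their values were seen. On sequences other than the main chromosomes, 4440 and 1861 peaks were left out, and 0 of them matched a member promoter. Analyses used Python 3.11.15, pandas 2.3.3, SciPy 1.17.1 and minimap2 2.31.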

Additional observations from a re-analysis of the deposited data

How the results depend on the processing

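Peaks were restricted to a −log10 q of 5 or more or to the 10000 with the lowest p per list, and the other alternatives were other promoter definitions, other choices of like-GC genes, other ranks and each replicate alone. Of 71 alternative values of the main results, 50 stayed close, 16 moved and 5 changed sign. All 5 sign changes concerned G1/S minus G2/M. Its share became -2.5 percentage points at a −log10 q of 5, -10.8 with the 10000 peaks, and -0.833 both with edges within 1000 bp and with summits within 3000 bp, and its fold percentile became 10.003 with the 10000 peaks. That fold percentile was -16.2 with canonical starts only, -21.1 without the 18 members that share a promoter and -19.6 with the nearest peak.

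Members occupied in both replicates were 78.2% at a −log10 q of 5, where like-GC genes were 58.5%, and 45.5% with the 10000 peaks, where like-GC genes were 29.4%. Leaving out 1 replicate gave 94.5 to 100%, with replicate 1 alone at 100%. Summits near the start were 67.3% at a −log10 q of 5, 34.5% with the 10000 peaks and 67.3% within 500 bp, and 85.5 to 92.7% with 1 replicate. The excess over like-GC genes was 16.05 points with the 10000 peaks, 32.1 without shared promoters and 32.7 with GC in 1000 bp either side. The median fold percentile was 54.2 with the 10000 peaks and 70.6 with the nearest peak. The gene percentile difference from like-GC genes was 22.1 with the 10000 peaks, from 44.1 in replicate 1 and 0 in replicate 2. The 0 means that the median member and the median like-GC gene had equal ranks, and genes without a peak all share the bottom rank. The mean of 22.1 was therefore not read as an excess. The cause of the other changes was not tested. No paired analysis was possible because the design has no second group. The 3 members not occupied in both replicates all lacked a peak in replicate 2.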
